A study of Mus musculus with 21 samples.

Results

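The genes described here are Cav1, Cav2, Ptrf, Sdpr, Prkcdbp, Ehd2, Ehd4, Pacsin2, Plvap and Emp1. All but Emp1 build or regulate small membrane vesicles of the endothelium, and Emp1 was listed with them. The 10 genes are called vesicle genes below as a name for the list. They were taken by name from an expression table of brain endothelial cells, which holds 24206 usable gene names, and all 10 were found and passed the filter on low values in both experiments of the study. The study asked how Gpr124, a receptor that supports Wnt signalling in brain vessels, affects the blood-brain barrier in disease, here after ischemic stroke. Live CD45-CD31+PDGFRb- endothelial cells were sorted by flow cytometry from brain tissue of adult C57BL/6 mice, 12 to 20 weeks old, and their RNA was sequenced in bulk. In bulk samples, fewer cells of a type and less RNA per cell cannot be told apart.

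In the stroke experiment blood flow in 1 middle cerebral artery was blocked for 1 h and then restored for 1 d (middle cerebral artery occlusion, MCAO). Cells came from the stroke hemisphere (ST) or the opposite, non-stroke hemisphere (NS) of mice that had all undergone the occlusion, so neither group is from an uninjured animal. The controls were Gpr124 flox/+; ROSA-CreER+ and the conditional knockouts (cKO) were Gpr124 flox/-; ROSA-CreER+. Both genotypes thus carried the inducible Cre, which is expressed from the ROSA locus in many cell types and not in endothelium alone. Each of the 4 groups, Control_NS, Control_ST, cKO_NS and cKO_ST, had 4 libraries, made from the 3' ends of polyadenylated RNA. A second experiment, without stroke, had 3 libraries of Ctnnb1 lox(ex3)/+; Cdh5-CreER+ mice, in which Cre removes exon 3 of 1 beta-catenin allele and the protein is stabilized (Bcat_exon3), and 2 of Ctnnb1 +/+; Cdh5-CreER+ mice (Bcat_control). Its Cre is driven by the endothelial Cdh5 promoter in both groups, and a different kit, for total RNA, was used for its libraries. The 2 experiments were therefore never set against each other. The labels do not say that libraries came from separate animals, so the p-values measure only the spread between these samples.

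Caveolae are flask-shaped pits of the plasma membrane that pinch off as vesicles and carry plasma proteins across endothelial cells. Caveolins, which sit in the membrane, and cavins, which coat it from the cytoplasm, build the bulb, while EHD and pacsin proteins act at the neck and Plvap spans the opening as a thin diaphragm. Endothelium of the healthy brain holds few such vesicles, and this scarcity is one of the features that make it a barrier. Emp1 is a small tetraspan membrane protein of the Pmp22 family, and its part in vesicles was not tested.

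The libraries were checked first. The authors' values are RPKM, reads per kilobase of gene scaled to the depth of the library. Depth, estimated from the steps between low values, ran from 4.73 to 19.7 M reads in the stroke libraries. Controls averaged 8.43 M reads in Control_NS and 10.9 in Control_ST, and knockouts 9.11 M reads in cKO_NS and 15.0 in cKO_ST. These estimates rest on 22.6 to 35.7% of low values falling within 0.02 of a whole read, where chance gives 4% at a depth fixed beforehand. The depth scale was chosen to make this share largest, so chance would give more than 4% here. The estimates could not be made for the other experiment. Gpr124 itself averaged 4.49 ± 2.25 RPKM (SD, n = 4) in Control_NS, 4.99 ± 2.52 in Control_ST, and in the knockouts 2.76 ± 1.65 in cKO_NS and 1.37 ± 0.59 in cKO_ST. Tags outside the deleted part of a gene check nothing, and where those of Gpr124 lie is not given in the sources used here. Axin2, a Wnt target, averaged 4.59 ± 1.49 RPKM (SD, n = 4) in Control_NS and 2.66 ± 0.25 in cKO_NS, with overlap. In the stroke hemisphere it was at 1.04 ± 0.35 in Control_ST and 0.25 ± 0.15 in cKO_ST. There every knockout library (at most 0.409) lay below every control library (at least 0.717). In 2 libraries the sex read from Xist and Y-linked genes went against the label: cKO_NS 4, labelled female, had Xist at 1.48 RPKM and a sum of 189 RPKM over Uty, Kdm5d, Ddx3y and Eif2s3y, which are Y-linked, and cKO_ST 3, labelled male, had Xist at 89.7 and a Y-linked sum of 0.423 RPKM. By RNA all Control_NS and Control_ST libraries were female. In knockouts cKO_NS 4 and cKO_ST 4 were male, with Y-linked sums of 189 and 249 RPKM, and the others female. All Bcat_exon3 and Bcat_control libraries were male. Sex was thus not balanced between the genotypes of the stroke experiment. Both stroke comparisons called the same number of the 10 vesicle genes without cKO_NS 4 and cKO_ST 3.

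After stroke, the vesicle genes did not move as a group. In controls Emp1 rose 23.1-fold and Ehd4 2.02-fold, Sdpr fell 3.34-fold, and the other 7 did not pass the test. In knockouts the same 3 passed in the same directions, with Emp1 15.9-fold and Ehd4 2.35-fold higher and Sdpr 3.19-fold lower, and Prkcdbp rose 1.97-fold. The caveolins Cav1 and Cav2 did not pass in either genotype. No member passed in knockouts against controls in either hemisphere, or with stabilized beta-catenin. Folds are on the log2(RPKM + 1) scale, which understates changes of genes with low values, and the test was limma's moderated test on 9838 genes with an adjusted p threshold of 0.05. The background for the 3 of 10 members called in controls was 13.3% of all genes tested (8.46% higher and 4.84% lower), and for the 4 of 10 in knockouts it was 15.2% (6.44% higher and 8.71% lower). The median log2 change over the 10 members was 0.47 in controls, against 0.01 over all genes, and 0.14 in knockouts, against -0.13. That median of all genes moved to -0.01 in knockouts with median-of-ratios scaling, which turned 634 higher and 857 lower calls into 867 and 604, and no called member changed direction. Without the 2 libraries of differing sex label, the log2 changes in knockouts were 4.16 for Emp1, 1.18 for Ehd4, 1.21 for Prkcdbp and -1.84 for Sdpr, and all 4 passed.

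**Figure D1:**
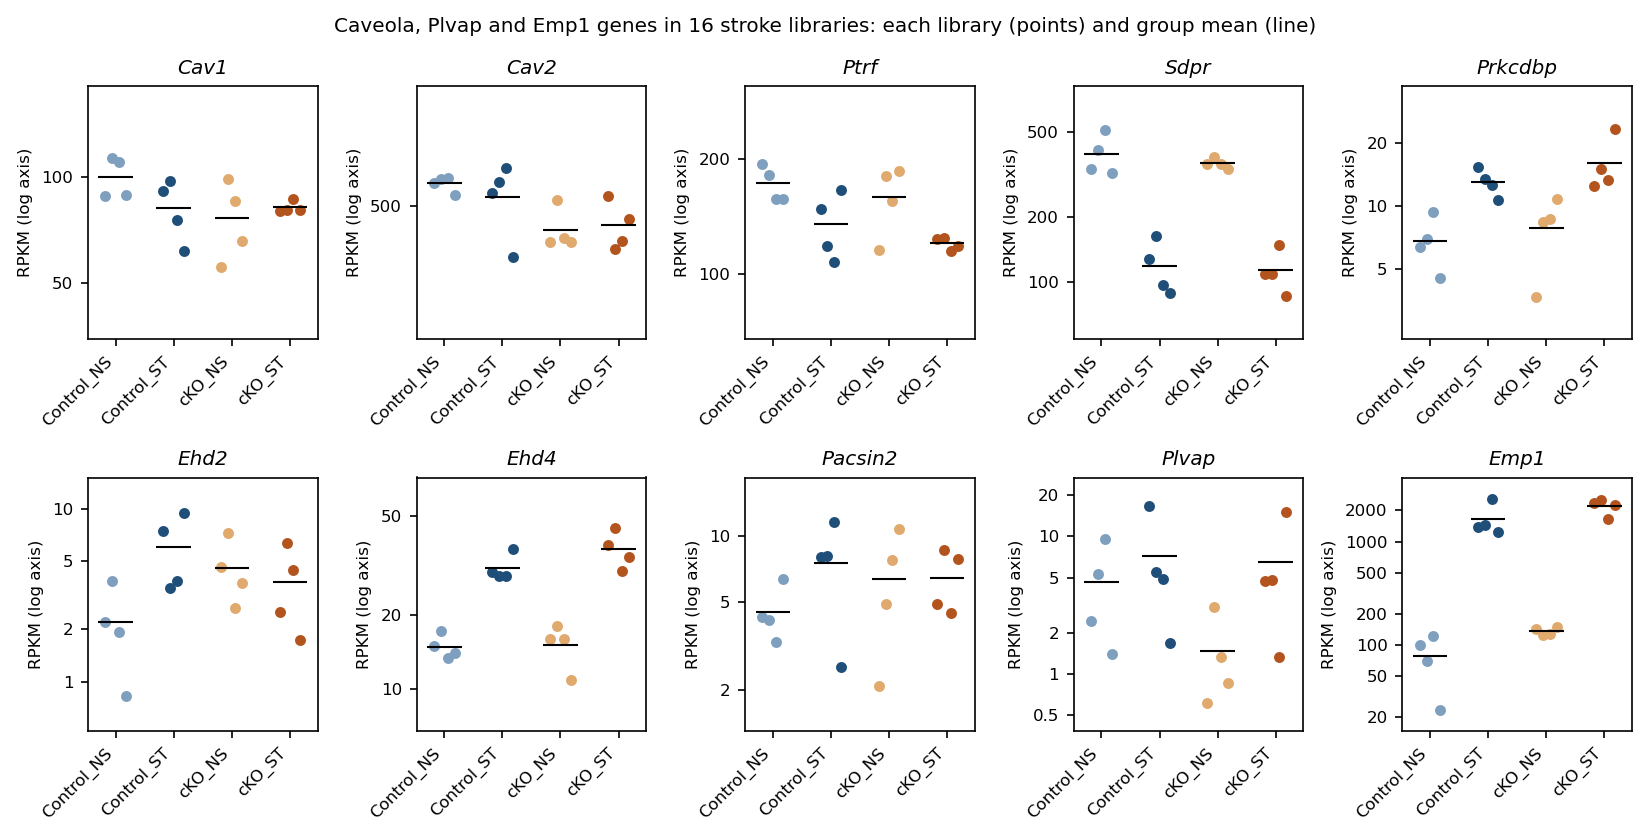
RPKM of the 10 genes on log axes in the 16 stroke libraries, with points for libraries (replicate 1 to 4 from left to right) and lines for group means. Emp1, Ehd4 and Prkcdbp are higher and Sdpr is lower in every stroke library than in every non-stroke library of the same genotype, while the remaining 6 genes overlap.

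**Figure D2:**
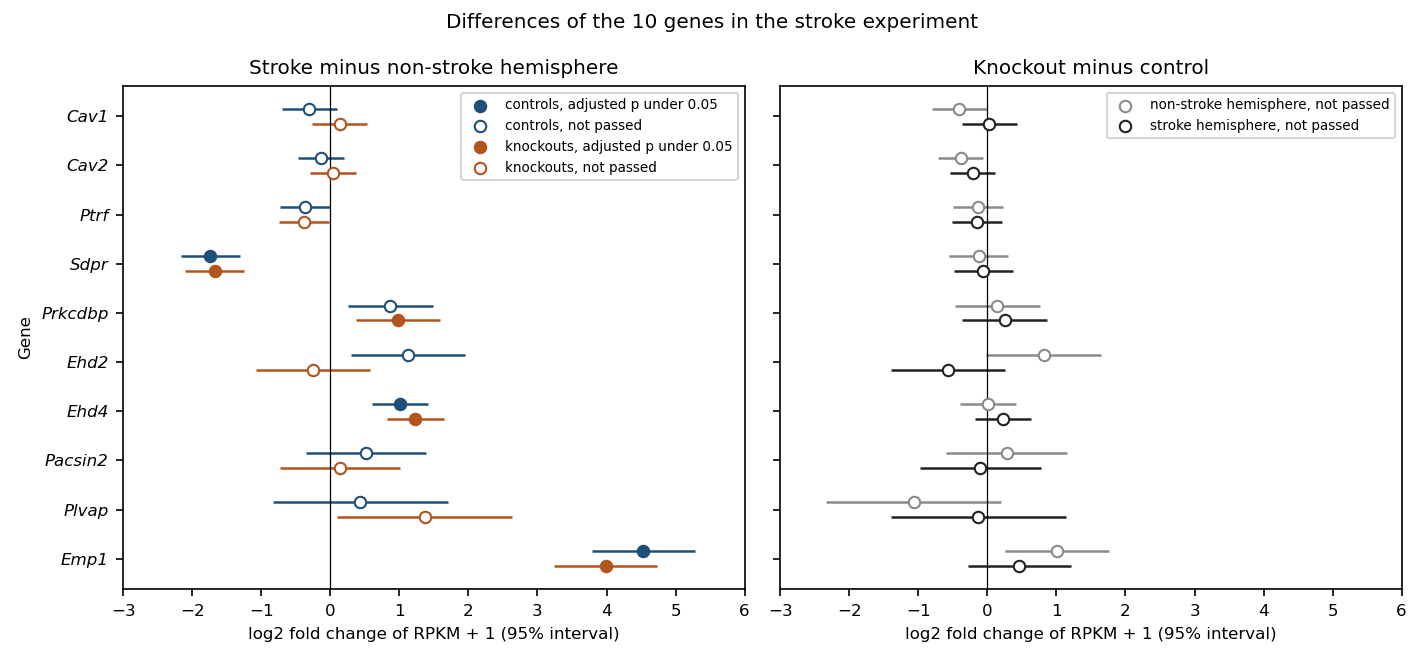
Log2 fold changes of RPKM + 1 with 95% intervals from the limma fit, for stroke minus non-stroke (left) and knockout minus control (right), filled where the adjusted p is under 0.05. Emp1 and Ehd4 (higher) and Sdpr (lower) are filled in both genotypes and Prkcdbp in knockouts only, and no gene is filled on the right.

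Promoter windows of the 3 genes called in both genotypes set the unlike responses beside the sequence before a listed start of each gene. The 250 bases before each start were taken from RefSeq (build GRCm38.p6), which gave 13 starts for 8 of the 10 members, without Prkcdbp and Plvap. The longest stretch of each window that no GENCODE M21 exon covers is printed 5′ to 3′ on the gene's strand, at chr6:135362708-135362903 (plus strand) for the first Emp1 start, chr1:51288876-51289125 (plus) for Sdpr and chr2:120154607-120154825 (minus) for Ehd4. The windows of both Emp1 starts lie inside Emp1 as GENCODE places it (chr6:135362545-135383173), so neither is upstream of the whole gene. Capitals mark matches, on either strand, to any of 7 motifs. The AP-1 motif was searched as TGANTCA and the STAT motif as TTCNNNGAA. The HIF motif was searched as ACGTG, and TCF/LEF as CTTTGA. Sp/KLF was searched as GGGCGG and the TATA motif as TATAAA, and the last was the degenerate NF-kB consensus.
Emp1: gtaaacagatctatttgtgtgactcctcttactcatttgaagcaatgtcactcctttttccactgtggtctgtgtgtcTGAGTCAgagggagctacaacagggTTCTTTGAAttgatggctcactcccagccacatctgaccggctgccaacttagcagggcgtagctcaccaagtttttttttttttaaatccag
Sdpr: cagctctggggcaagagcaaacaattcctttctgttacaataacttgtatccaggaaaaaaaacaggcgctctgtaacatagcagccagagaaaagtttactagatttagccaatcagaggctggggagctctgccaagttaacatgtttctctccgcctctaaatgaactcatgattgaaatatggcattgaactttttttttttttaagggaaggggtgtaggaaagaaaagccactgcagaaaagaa
Ehd4: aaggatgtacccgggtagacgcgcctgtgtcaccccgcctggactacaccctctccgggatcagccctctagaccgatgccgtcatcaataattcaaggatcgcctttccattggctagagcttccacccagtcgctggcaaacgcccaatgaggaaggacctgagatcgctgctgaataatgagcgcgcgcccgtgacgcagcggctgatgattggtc
The full Emp1 window held 2 AP-1 matches, at 145 to 139 and 25 to 19 bases before the start, and 2 STAT matches, at 120 to 112 and 22 to 14. The nearer AP-1 and STAT matches overlap each other and lie beyond the printed stretch, and the farther STAT match overlaps a TCF/LEF match. Of the same 250-base windows of all 32851 promoters in the RefSeq table, 6.75% held an AP-1 match and 7.02% a STAT match. The second Emp1 start had only a TCF/LEF match, a motif found in 13.8% of all windows. The Sdpr window held none of the 7 motifs. The Ehd4 window held 1 Sp/KLF match (32.7% of all windows), 20 to 15 bases before the start in the exon-covered end. NF-kB, HIF and TATA motifs, found in 7.25%, 16.6% and 12.4% of all windows, were in none of these 4 windows. Members that did not pass in stroke also held AP-1 matches, Cav2 at 92 to 86 bases before its start and the second Pacsin2 start at 152 to 146. These matches describe letters in a short window and show no binding.

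Cav1, the main caveolin, without which caveolae do not form, and Cav2, its partner, are neighbours on chromosome 6 in GRCm38, both on the plus strand, with Cav2 at chr6:17281185-17289115 and Cav1 at chr6:17306335-17341452, 17219 bases further on. Cav1 measured 88.1, 113, 110 and 88.5 RPKM in Control_NS and 91.1, 97.3, 75.4 and 61.8 in Control_ST. In knockouts it measured 55.5, 98.6, 85.5 and 66.0 RPKM in cKO_NS and 80.2, 80.6, 86.4 and 80.5 in cKO_ST. The hemispheres overlapped in both genotypes, and the cKO_ST libraries lay within the wider range of cKO_NS. The log2 difference between hemispheres was -0.30 in controls (95% interval -0.70 to 0.09, limma adjusted p = 0.328) and 0.13 in knockouts (-0.26 to 0.53, adjusted p = 0.683).

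Cav2 had the highest mean RPKM of the 10 genes in both non-stroke groups. It measured 570, 582, 587 and 532 RPKM in Control_NS, 539, 572, 619 and 373 in Control_ST, 406, 516, 415 and 406 in cKO_NS and 530, 391, 409 and 464 in cKO_ST. Stroke and non-stroke libraries overlapped in both genotypes, with log2 differences of -0.13 in controls (95% interval -0.46 to 0.19, limma adjusted p = 0.640) and 0.04 in knockouts (-0.29 to 0.37, adjusted p = 0.896). Both intervals leave out a change of the size seen for Sdpr or Ehd4. Within single libraries the RPKM ratio of Cav1 to Cav2 averaged 0.18 ± 0.02 in Control_NS and 0.16 ± 0.02 in Control_ST, and for knockouts 0.17 ± 0.03 in cKO_NS and 0.19 ± 0.03 in cKO_ST (SD, n = 4). The groups overlapped in this ratio, which divides 3' tags by whole gene length and so orders libraries rather than the 2 genes.

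The cavins, the coat proteins of the bulb, were measured under older names: Ptrf (now Cavin1, the coat's obligate core), Sdpr (Cavin2) and Prkcdbp (Cavin3). Ptrf (chr11:100956733-100970887, minus strand) measured 195, 182, 158 and 157 RPKM in Control_NS, 149, 118, 108 and 167 in Control_ST, 116, 181, 155 and 186 in cKO_NS and 124, 124, 115 and 119 in cKO_ST. Its stroke libraries lay mostly lower but overlapped the non-stroke libraries in both genotypes. The log2 difference was -0.37 ± 0.17 (SE) in controls (limma adjusted p = 0.175) and -0.38 ± 0.17 in knockouts (adjusted p = 0.149).

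Sdpr, a cavin that shapes the caveolar membrane (chr1:51289126-51302960, plus strand), fell in stroke. It measured 337, 413, 512 and 322 RPKM in Control_NS and 127, 164, 96.9 and 88.5 in Control_ST. Every stroke library lay below every non-stroke library, and the fit gave a log2 change of -1.74 ± 0.20 (SE, limma adjusted p = 1.95e-05), the gene ranking number 53 of 9838 by p. In knockouts it measured 354, 384, 353 and 336 RPKM in cKO_NS and 108, 109, 149 and 86.3 in cKO_ST. The hemispheres again did not overlap, with a log2 change of -1.67 ± 0.20 (adjusted p = 3.37e-05). The interaction, the knockout change minus the control change, was 0.07 (95% interval -0.54 to 0.67, limma adjusted p = 0.975). Among all genes, 8.7% were lower without overlap in controls and 11.4% in knockouts.

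Prkcdbp, a cavin that binds protein kinase C delta (chr7:105480083-105482300, minus strand), was low. It measured 6.35, 6.99, 9.36 and 4.54 RPKM in Control_NS and 15.3, 13.4, 12.6 and 10.7 in Control_ST. All 4 stroke libraries lay above all 4 non-stroke libraries, but the log2 difference of 0.87 ± 0.29 (SE) did not pass (limma adjusted p = 0.0569). In knockouts it measured 3.70, 8.41, 8.63 and 10.8 RPKM in cKO_NS and 12.5, 15.0, 13.4 and 23.3 in cKO_ST. These groups did not overlap either, and the log2 change of 0.98 ± 0.29 passed (adjusted p = 0.0301). This call was lost without cKO_NS 1 (0.70, adjusted p = 0.0946), cKO_ST 2 (0.99, 0.0598) or cKO_ST 4 (0.79, 0.0942), and over all alternatives the adjusted p ran from 0.0119 to 0.0946. The controls and knockouts differed by 0.11 in their log2 changes (95% interval -0.76 to 0.98, limma adjusted p = 0.972), so the pass in 1 genotype alone is not a shown difference. Among all genes, 11.9% were higher without overlap in controls and 7.4% in knockouts, against 3 of the 10 members in each. In either direction the hemispheres did not overlap for 4 of the 10 members in each genotype, against 20.6% of all genes in controls and 18.8% in knockouts. About 44 to 763 reads lay behind each of its values, by the estimated depths.

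The makeup of the cavin coat messages therefore differed between hemispheres within single libraries. The RPKM ratio of Sdpr to Ptrf averaged 2.32 ± 0.65 in Control_NS and 0.92 ± 0.35 in Control_ST, and 2.31 ± 0.53 in cKO_NS and 0.94 ± 0.24 in cKO_ST (SD, n = 4). Its lowest non-stroke value was 1.73 and its highest stroke value 1.39. The ratio of Prkcdbp to Ptrf averaged 0.040 ± 0.014 in Control_NS and 0.099 ± 0.024 in Control_ST, and 0.048 ± 0.012 in cKO_NS and 0.134 ± 0.043 in cKO_ST. Both ratios separated the hemispheres in each genotype without overlap, and they are descriptions of the same values as above, without a test.

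**Figure D3:**
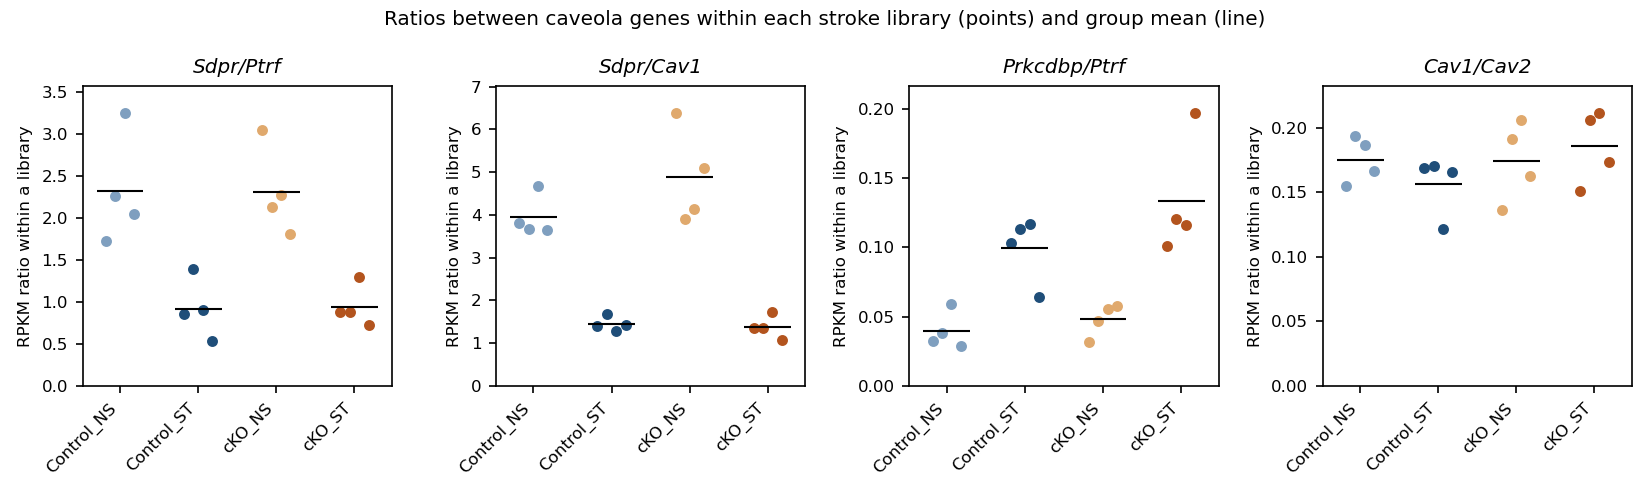
RPKM ratios between caveola genes within each of the 16 stroke libraries (points) with group means (lines), on axes from 0. Sdpr relative to Ptrf or Cav1 is lower and Prkcdbp relative to Ptrf is higher in the stroke libraries of each genotype, while Cav1 relative to Cav2 lies at a mean of 0.16 to 0.19 in all 4 groups.

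At the neck of caveolae, EHD proteins are membrane-bound ATPases of the dynamin superfamily. Ehd4 (chr2:120089175-120154606, minus strand), which also acts on endosomes, measured 14.9, 17.1, 13.3 and 14.0 RPKM in Control_NS and 29.8, 28.6, 28.8 and 36.9 in Control_ST. The groups did not overlap, and the log2 change was 1.01 ± 0.19 (SE, limma adjusted p = 0.00189). In knockouts it measured 15.9, 17.9, 16.0 and 10.9 RPKM in cKO_NS and 38.1, 44.8, 30.1 and 34.1 in cKO_ST. All stroke libraries again lay above all non-stroke libraries, with a log2 change of 1.23 ± 0.19 (adjusted p = 3.32e-04). The interaction was 0.22 (95% interval -0.36 to 0.80, limma adjusted p = 0.900).

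Ehd2 (chr7:15946958-15967567, minus strand), the EHD protein that holds caveolae at the surface, was near the lower end of the measured range in these 3' libraries. It measured 2.21, 3.82, 1.93 and 0.830 RPKM in Control_NS, 7.40, 3.49, 3.79 and 9.44 in Control_ST, 4.57, 7.21, 2.66 and 3.73 in cKO_NS and 2.54, 6.36, 4.42 and 1.75 in cKO_ST. The hemispheres overlapped in both genotypes, with a log2 difference of 1.13 ± 0.39 (SE) in controls (limma adjusted p = 0.0663) and -0.26 ± 0.39 in knockouts (adjusted p = 0.704). Without Control_NS 2 the control difference was 1.35 and passed (adjusted p = 0.0441, over all alternatives 0.0441 to 0.191). The difference between the genotypes' changes was -1.38 ± 0.56, with an unadjusted limma p of 0.0229 and an adjusted p of 0.681, so it did not pass.

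Pacsin2 (chr15:83375607-83464606, minus strand), an F-BAR protein that bends the neck membrane, measured 4.30, 4.16, 3.32 and 6.40 RPKM in Control_NS, 8.03, 8.14, 11.5 and 2.53 in Control_ST, 2.09, 4.90, 7.81 and 10.8 in cKO_NS and 4.89, 8.67, 4.49 and 7.84 in cKO_ST. Groups overlapped in both genotypes, with 1 Control_ST library below all Control_NS libraries. The log2 difference was 0.52 in controls (95% interval -0.36 to 1.39, limma adjusted p = 0.466) and 0.14 in knockouts (-0.73 to 1.01, adjusted p = 0.859). A change as large as that of Ehd4 in controls lies within the control interval.

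Plvap (chr8:71497765-71511752, minus strand), the diaphragm protein of fenestrae and caveolae, is a marker of leaky endothelium that the mature barrier normally lacks. It measured 2.42, 5.36, 9.58 and 1.40 RPKM in Control_NS, 16.8, 5.48, 4.92 and 1.67 in Control_ST, 0.618, 3.07, 1.33 and 0.866 in cKO_NS and 4.75, 4.80, 1.33 and 15.2 in cKO_ST. Single groups spread widely, and the hemispheres overlapped in both genotypes. The log2 difference was 0.43 in controls (95% interval -0.84 to 1.70, limma adjusted p = 0.712) and 1.36 in knockouts (0.10 to 2.63, adjusted p = 0.139). Neither passed, and each interval holds changes as large as that of Ehd4. About 9 to 643 reads lay behind a value.

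The choroid plexus, whose vessels are fenestrated, could also have been present in the sorted tissue, and its markers were read. The summed RPKM of Ttr, Folr1, Kl, Clic6 and Kcnj13 ranged from 291 to 476 in Control_NS and 15.4 to 600 in Control_ST. In knockouts it ranged from 87.1 to 1330 in cKO_NS and 4.41 to 998 in cKO_ST. Ttr made up most of this sum in each library, and the other 4 markers together were at 0.090 to 9.59 RPKM in Control_ST. The library with the highest Plvap, Control_ST 1 at 16.8 RPKM, also had the highest choroid plexus sum of its group, 600, with Ttr at 594. Control_ST 4, with the lowest Plvap of the group at 1.67 RPKM, had a sum of 230 with Ttr at 221. The highest sums of all 16 libraries, 1330 in cKO_NS 2 and 998 in cKO_ST 2, stood beside Plvap at 3.07 and 4.80 RPKM. The library with the next highest Plvap, cKO_ST 4 at 15.2 RPKM, was male by RNA and had a sum of 90.0. It held Rgs5, a pericyte gene, at 93.8 and Esm1, a gene of angiogenic tip cells, at 60.9 RPKM, each the highest of the 16 stroke libraries. The other 9 mural markers read here were not high with Rgs5. Together they were at 2.92 to 8.38 RPKM in the cKO_ST libraries and at 9.04 to 12.5 in Control_NS. The part of these markers in the Plvap values was not tested.

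**Figure D4:**
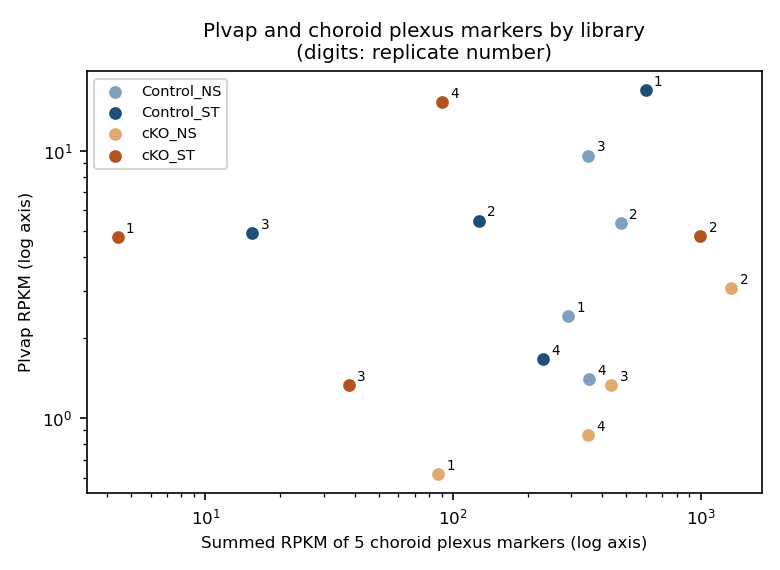
Plvap RPKM against the summed RPKM of 5 choroid plexus markers, both on log axes, for each of the 16 stroke libraries, with replicate numbers beside the points. The 2 highest Plvap values, 16.8 in Control_ST 1 and 15.2 in cKO_ST 4, lie at choroid plexus sums of 600 and 90.0. Ttr makes up most of the sum in each library.

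Emp1 (chr6:135362545-135383173, plus strand) had the largest change of the 10 genes. It measured 101, 70.1, 121 and 23.7 RPKM in Control_NS and 1371, 1433, 2602 and 1231 in Control_ST. All stroke libraries lay far above all non-stroke libraries, and the log2 change was 4.53 ± 0.36 (SE, limma adjusted p = 3.48e-07), the third largest of the 9838 genes by size. In knockouts it measured 143, 125, 129 and 150 RPKM in cKO_NS and 2384, 2507, 1659 and 2275 in cKO_ST. The log2 change there was 3.99 ± 0.36 (adjusted p = 2.34e-06), also the third largest. In Control_NS its mean RPKM lay below those of Cav2, Sdpr, Ptrf and Cav1. In Control_ST it lay above them all, with every library above every Cav2 value. These RPKM divide 3' tags by gene length, so the order between genes can be distorted. The interaction was -0.55 (95% interval -1.60 to 0.51, limma adjusted p = 0.858).

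In knockouts each replicate number correlated most with its own number across hemispheres, as described under processing, and a ratio is given for each number. The labels do not say that a number names the same animal. The RPKM of Emp1 was 16.6, 20.1, 12.8 and 15.2 times as high in cKO_ST as in cKO_NS of the same number. Ehd4 was 2.40, 2.50, 1.88 and 3.14 times as high and Prkcdbp 3.38, 1.78, 1.55 and 2.17 times as high. Sdpr was 3.26, 3.53, 2.37 and 3.89 times as high in cKO_NS as in cKO_ST. For Plvap the stroke values were 7.69, 1.56, 1.00 and 17.5 times the non-stroke values, a wider spread between numbers than for the 4 called genes.

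Markers of cell types moved between the hemispheres as well. The summed RPKM of 10 endothelial markers was 4985 to 5241 in Control_NS and 3206 to 4566 in Control_ST, without overlap, and 4674 to 8666 in cKO_NS and 3667 to 5601 in cKO_ST. Slc2a1, the glucose transporter of the barrier, made up most of this sum and was lower in stroke, at 3990 to 4189 RPKM in Control_NS against 1850 to 3135 in Control_ST. The other 9 markers together were higher in stroke in controls, at 995 to 1176 in Control_NS against 1305 to 1431 in Control_ST, and overlapped slightly in knockouts, at 1194 to 1432 in cKO_NS against 1428 to 1590 in cKO_ST. They did not move alike. In controls Pecam1, the sorted surface protein, Cdh5 and Emcn were higher without overlap, with means of 151, 243 and 140 RPKM in Control_NS and 207, 402 and 225 in Control_ST. Tek was lower without overlap, at a mean of 143 against 101. Flt1 and Erg had lower means with overlap (69.6 against 53.5 and 34.6 against 27.7). Cldn5, Tie1 and Esam had slightly to moderately higher means with overlap. In knockouts Cldn5, Tie1 and Esam instead had lower means in stroke. These were 162, 82.4 and 196 RPKM in cKO_NS against 102, 58.1 and 179 in cKO_ST, without overlap for Cldn5 alone. The means of Pecam1, Cdh5, Emcn, Tek, Flt1 and Erg moved in knockouts as in controls. The sum of 10 mural markers was 50.5 to 70.1 in Control_NS and 12.2 to 48.9 in Control_ST, and in knockouts 23.4 to 33.4 in cKO_NS and 15.5 to 102 in cKO_ST, with Pdgfrb at 0 to 0.716 in all 16. Rgs5 made up most of this sum, at 38.2 to 57.6 RPKM in Control_NS and 5.03 to 43.8 in Control_ST, and the other 9 mural markers together were at 9.04 to 12.5 and 4.50 to 8.87 RPKM. Fibroblasts, which also carry caveolae, had a sum of 6 markers of at most 2.09 RPKM, with Col1a1 listed at 0 in every stroke library. The part of mural cells in the changes of Sdpr, Ehd4, Prkcdbp and Emp1 was not tested.

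Between genotypes, no member passed in either hemisphere. In the non-stroke hemisphere limma called 0 of 10 members, against 0.315% of 9838 genes (0.224% higher and 0.0915% lower, as 22 and 9 genes, or 14 and 15 with median-of-ratios scaling), and 3 members and 1405 genes had an unadjusted p under 0.05. Those members were Cav1, Cav2 and Emp1. Cav2 lay lower in every cKO_NS library than in every Control_NS library (log2 difference -0.39 ± 0.16 SE, limma adjusted p = 0.269), and Emp1 lay higher without overlap (1.01 ± 0.36, adjusted p = 0.203). Non-overlap was found for 2.04% of all genes in the lower and 6.66% in the higher direction. Cav1 differed by -0.41 ± 0.19 with overlap (adjusted p = 0.337). The 10 members had a median log2 difference of -0.06, against 0.11 over all genes, and that of all genes was 0.00 after median-of-ratios scaling.

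In the stroke hemisphere no member separated the genotypes and 3.32% of all genes did (1.46% higher and 1.86% lower in knockouts). Here limma called 0 members and 0 of 9838 genes, and 0 members and 476 genes had an unadjusted p under 0.05. Emp1 differed by 0.46 (95% interval -0.29 to 1.21, limma adjusted p = 0.996) and Sdpr by -0.06 (-0.49 to 0.37, adjusted p = 0.998). For the interaction of genotype and stroke, limma called 0 members and 0 genes, with 1 member (Ehd2) and 691 genes at an unadjusted p under 0.05.

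Other genes of the caveolar and neighbouring routes were described from lists. Of 23 partners of caveolae, 16 could be tested. In controls 1 passed as higher and 2 as lower, and in knockouts 1 and 3, with list medians of 0.06 and -0.30 in log2 against 0.01 and -0.13 for all genes. These 3 and 4 of 16 stand against 13.3% and 15.2% of all genes called. Nostrin, an F-BAR protein that traffics the nitric oxide synthase Nos3, fell from 166 ± 20.1 to 61.6 ± 19.9 RPKM in controls (SD, n = 4, log2 change -1.47, limma adjusted p = 0.00541) and from 168 ± 54.0 to 49.3 ± 31.7 in knockouts (-1.85, adjusted p = 8.50e-04). Mfsd2a, a lipid transporter whose loss raises caveolar transcytosis at the barrier, fell from 33.5 ± 8.57 to 18.7 ± 10.6 RPKM in controls (-0.92, adjusted p = 0.0474, passing in 12 of 28 alternatives with 0.00477 to 0.154) and from 41.2 ± 3.24 to 15.4 ± 4.02 in knockouts (-1.39, adjusted p = 0.00395).

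Nos3, which binds caveolin, rose from 10.4 ± 3.67 to 32.5 ± 12.2 RPKM in controls (log2 change 1.56, limma adjusted p = 0.00144). In knockouts it was at 28.4 ± 6.93 and 38.2 ± 12.5 RPKM and did not pass (0.39, adjusted p = 0.392), and the difference between these changes did not pass either (-1.17, adjusted p = 0.681). It also passed between genotypes in the non-stroke hemisphere, with the higher level in knockouts (1.40, adjusted p = 0.0460), a call that held in 8 of 27 alternatives (0.0279 to 0.147). In knockouts Fyn, a kinase that phosphorylates caveolin, rose (1.08, adjusted p = 0.0194) and Dnm2, the dynamin that cuts vesicles off the membrane, fell (-0.82, adjusted p = 0.0323). The Dnm2 call held in 14 of 27 alternatives and was lost with the replicate block (adjusted p = 0.0529), when any single knockout library except cKO_NS 2 was left out, and after both other scalings. The Fyn call held in 27 of 28 and was lost without cKO_ST 1. The remaining partners did not pass, among them the EHD relative Ehd1 (log2 difference 1.01 in controls, adjusted p = 0.112).

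Of 18 genes of the clathrin route, which takes receptors such as that for transferrin across the same cells, 2 passed as higher in controls (Cltb, a clathrin light chain, 1.13, and Rab5c, an early endosome GTPase, 1.09 on the log2 scale) and 1 as lower in knockouts (Hip1, a clathrin adaptor, -0.71, which passed in 9 of 28 alternatives). These 2 and 1 of 18 stand against 13.3% and 15.2% of all genes called, and counts this small show no difference from those shares. The list medians were 0.24 and 0.00 against 0.01 and -0.13 for all genes. Rab5c also passed between genotypes in the non-stroke hemisphere (1.17, limma adjusted p = 0.0189), in 25 of 27 alternatives but not without Control_NS 4.

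No tested relative of Emp1 passed as higher. Over all genes 8.46% passed as higher and 4.84% as lower in controls, and 6.44% and 8.71% in knockouts. With so few relatives, the lack of a higher call tells little. Of 4 family members 3 could be tested, and Emp2 fell from 9.87 ± 0.98 to 4.77 ± 1.82 RPKM in controls (SD, n = 4, log2 change -0.98, limma adjusted p = 0.0400) and from 9.83 ± 2.10 to 4.29 ± 1.62 in knockouts (-1.08, adjusted p = 0.0224). Pmp22 was at 93.6 ± 12.8 and 97.6 ± 21.4 RPKM in controls (0.04, adjusted p = 0.909), and Emp3 did not pass either (0.65, adjusted p = 0.274). In knockouts both had higher means in stroke without passing, Pmp22 at 94.3 ± 8.57 and 128 ± 17.0 RPKM (0.43, adjusted p = 0.103) and Emp3 at 2.91 ± 1.68 and 4.27 ± 1.15 RPKM (0.49, adjusted p = 0.409). The Emp2 call held in 18 of 28 alternatives in controls and 26 of 28 in knockouts. Family medians were 0.04 in controls and 0.43 in knockouts on the log2 scale, against 0.01 and -0.13 for all genes.

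Of 11 genes of Vegf signalling and immature or fenestrated vessels, a group to which Plvap belongs, 10 could be tested, and in each genotype 4 passed as higher and 1 as lower. Over all genes 8.46% were higher and 4.84% lower in controls, and 6.44% and 8.71% in knockouts. The list medians were 0.49 and 0.72 on the log2 scale, against 0.01 and -0.13. Apln, an apelin peptide of sprouting vessels, rose by 4.22 in controls and 4.03 in knockouts on the log2 scale, and Angpt2, the destabilizing Tie2 ligand, by 2.82 and 1.90. Vegfa and Pgf, both Vegf receptor ligands, also rose in both genotypes, by 1.24 and 1.68 in controls and by 1.53 and 1.76 in knockouts. Both are low genes. In controls the Vegfa call held in 18 of 27 alternatives (log2 0.47 to 2.25, adjusted p 0.0129 to 0.0980) and was lost without any of Control_NS 2, 3 and 4 and Control_ST 2, 3 and 4. The Pgf call there held in 17 of 27 (0.73 to 2.91, 0.00575 to 0.102) and was lost without any of Control_NS 1, 3 and 4 and Control_ST 1, 3 and 4. In knockouts Vegfa held in 27 of 27 alternatives and Pgf in 23 of 27, lost without cKO_NS 1, cKO_ST 1 or cKO_ST 3 and with no filter. Of the receptors, Nrp1 fell in controls (-0.72) and Flt1 in knockouts (-0.54), calls that held in 19 of 28 and 20 of 28 alternatives. Esm1, which like Plvap marks Vegf-exposed endothelium, did not pass (-1.68 in controls, limma adjusted p = 0.178, and 0.77 in knockouts, adjusted p = 0.553). None of these lists had a called gene between genotypes in the stroke hemisphere or in the interaction.

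The genes whose pattern over the 16 stroke libraries was most like that of each called member were found by the root-mean-square difference of centred log2(RPKM + 1), among 5838 genes. For Emp1 they included Mir147 and Adamts9, with differences of 0.54 and 0.62 against a spread of 2.22 for Emp1 itself. The Mir147 locus lies inside the gene AA467197 on the same strand, so the reads of the 2 cannot be told apart. Adamts9, a secreted protease, averaged 18.2 RPKM in Control_NS and 287 in Control_ST.

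For Sdpr the most alike genes were Rab11fip1, Rnf144b and Utrn, with differences of 0.28, 0.28 and 0.29 against a spread of 0.89 on the log2 scale. Rab11fip1, an effector of recycling endosomes, averaged 61.5 RPKM in Control_NS and 22.3 in Control_ST, and for knockouts 50.5 in cKO_NS and 18.4 in cKO_ST. For Ehd4 they were Lrrc58, Actb and Rps18 (0.18, 0.20 and 0.20), and for Prkcdbp they were Pole4, Eef1g and Rps24 (0.24, 0.25 and 0.27), each against a member spread of 0.60 and 0.59. Actb encodes cytoplasmic actin, and Rps18 and Rps24 encode ribosomal proteins. These likenesses were picked for their size and carry no test.

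In the beta-catenin experiment, which asked what stronger Wnt signalling does in brain endothelium, no vesicle gene passed the test. Axin2, a Wnt target that checks the genotype, was higher in all 3 Bcat_exon3 libraries (46.5, 54.5 and 44.2 RPKM) than in both Bcat_control libraries (28.3 and 26.3). Cav1 was at 170, 219 and 114 RPKM in Bcat_exon3 and at 179 and 199 in Bcat_control, and led the 10 genes in both groups. Limma called 0 of 10 members and 0 of 11252 genes, with 1 member and 590 genes at an unadjusted p under 0.05. The design of 3 against 2 libraries limits what could pass.

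The member with that p was Sdpr, at 91.8, 70.4 and 93.3 RPKM in Bcat_exon3 and 162 and 121 in Bcat_control. Its groups did not overlap, and the log2 difference was -0.72 ± 0.25 (SE, limma adjusted p = 0.911). Non-overlap was common here, with 20.4% of all genes (8.66% higher and 11.7% lower), against 1 of the 10 members. The other coat genes overlapped: Ptrf was at 59.9, 81.2 and 55.1 RPKM against 71.8 and 78.2, Prkcdbp at 5.01, 5.05 and 14.0 against 17.2 and 8.63, and Cav2 at 33.7, 24.9 and 38.7 against 35.2 and 35.0. The 95% intervals of their log2 differences were -0.80 to 0.37 for Ptrf, -1.94 to 0.55 for Prkcdbp and -0.80 to 0.54 for Cav2.

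The neck genes also overlapped. Ehd2 was at 36.1, 49.4 and 59.3 RPKM in Bcat_exon3 and 56.1 and 48.9 in Bcat_control, Ehd4 at 18.7, 28.7 and 53.9 against 25.4 and 25.0, and Pacsin2 at 28.1, 15.8 and 18.5 against 18.0 and 11.7. The library Bcat_exon3 3 had the highest Ehd2 and Ehd4 of all 5. Plvap was at 2.44, 0 and 0.890 RPKM in Bcat_exon3 and at 4.93 and 0.471 in Bcat_control, and Emp1 at 9.06, 4.07 and 14.7 against 17.0 and 7.55. The log2 difference was -0.66 for Plvap (95% interval -2.60 to 1.28) and -0.42 for Emp1 (-1.71 to 0.88). Both intervals hold 0 and also falls of more than 1 on the log2 scale. Ttr, the choroid plexus gene, was at 17.5, 184 and 1017 RPKM in Bcat_exon3 and at 1181 and 67.9 in Bcat_control, and its part in the Plvap values was not tested. The higher Plvap of the controls was in the library with the higher Ttr, while the highest Plvap of Bcat_exon3 was in the library with the lowest Ttr.

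**Figure D5:**
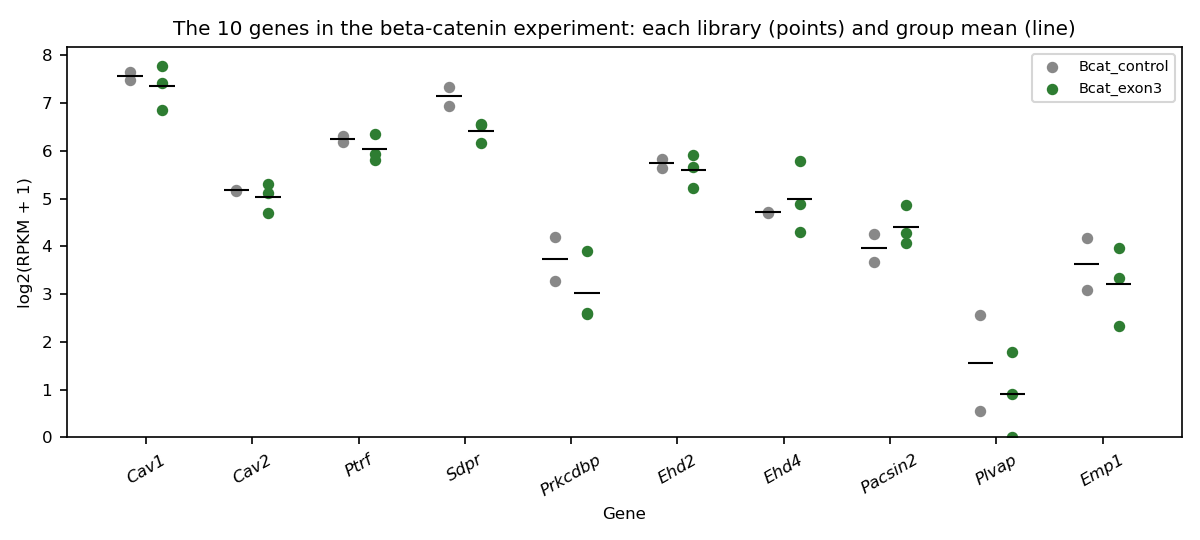
Log2(RPKM + 1) of the 10 genes in the 3 Bcat_exon3 and 2 Bcat_control libraries (points) with group means (lines). Sdpr is the 1 gene whose groups do not overlap, with 70.4 to 93.3 RPKM in Bcat_exon3 and 121 and 162 RPKM in Bcat_control.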

How the data were processed

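RNA of sorted brain endothelial cells was sequenced in 16 stroke and 5 beta-catenin libraries. The authors deposited RPKM values, for which edgeR and the mm10 genome are named in the submitters' processing notes. As to the aligner, annotation and gene lengths, they were not given in the sources used here. RPKM in the stroke libraries divides 3' tags by gene length, which can distort levels between genes. Of 24260 entries, 54 sharing 23 names were left out. A further 8 columns belong to no sample described and were not used.

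Values were tested as log2(RPKM + 1) with limma 3.58.1 in R 4.3.3 (eBayes with a trend, two-sided, Benjamini-Hochberg over all genes, threshold 0.05) on the genes whose mean was 1 RPKM or more. Xist and 4 Y-linked genes were not tested. One fit of 4 group means covered the stroke libraries (9838 genes) and another the 5 others (11252 genes). On simulated data of the stroke effect in controls (9838 genes), 96% of genes changed by 2 on the log2 scale were recovered and 36% of those changed by 1. The changed genes were drawn from the more abundant genes only, so recovery at the levels of Plvap, Ehd2 and Pacsin2 was not simulated. Depth was estimated from the steps of low values, and intervals cover the spread between libraries. The alternatives changed the pseudocount, filter, scaling, moderation, replicate block, sex, samples in the fit and single libraries.

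Between the knockout hemispheres, deviations from group means correlated at 0.100, 0.134, 0.214 and 0.105 for numbers 1 to 4, each highest with its own number. Between Control_ST and cKO_ST, which cannot share an animal, a correlation of differing numbers reached 0.168. Pairing by number was therefore not established. The members and gene lists were chosen with earlier results of these data known. All members were named, with up to 4 passing genes per list and comparison by lowest p and the 3 genes most alike to each called member, of which 1 is not reported here. A few further list genes (Ehd1, Emp3, Pmp22, Esm1, and Nos3 in knockouts) and single markers were chosen after their values were seen.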

Additional observations from a re-analysis of the deposited data

Results flagged for a closer look

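Of 40 sets of 4 libraries (10 genes in 4 stroke groups), 4 held a value far from the other libraries of its group by Dixon's test at the 95% level, where chance gives about 1 in 20. Emp1 was 2602 RPKM in Control_ST 3, against 1231 to 1433 in the other libraries. Ehd4 was 36.9 RPKM in Control_ST 4, against 28.6 to 29.8. Cav2 was 516 RPKM in cKO_NS 2, against 406 to 415. Cav1 was 86.4 RPKM in cKO_ST 3, against 80.2 to 80.6, and this library is one of the pair whose sex label differed.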

How the results depend on the processing

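In all 28 alternatives per stroke comparison, Emp1, Ehd4 and Sdpr passed in the same direction in both genotypes. The number of members called was 3 to 4 in both, over other settings and over single libraries left out. Prkcdbp in controls also passed with a mean RPKM of at least 5 (adjusted p = 0.0420), with sex as a covariate (0.0304), with only the 2 groups (0.0420), and without Control_NS 3, cKO_NS 1, cKO_NS 4 or cKO_ST 4, and Ptrf in controls with quantile normalization (0.0357). In knockouts Prkcdbp did not pass with only the 2 groups (0.0786), and Ptrf passed without cKO_NS 1.

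In control pairs the numbers correlated at 0.099, 0.130, 0.072 and 0.012, highest with their own number except for number 4. They are taken as names only, and in knockouts the pairing is not established either. With the replicate block within genotype, Prkcdbp passed in controls (0.0324) while Vegfa (0.0526) and Pgf (0.0594) in controls and Dnm2 in knockouts (0.0782) did not, and the block changed no other call of a member or named list gene in these comparisons. The replicate block over all groups called 60 genes between genotypes in the non-stroke hemisphere, against 31. That count was also 60 with sex as a covariate, 19 with no filter, 84 with a mean of at least 5, 12 with no trend and 2 with only its groups.

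Without single libraries, all genes called ranged from 993 to 1472 for stroke in controls, 1044 to 1552 in knockouts, 1 to 54 between genotypes in the non-stroke hemisphere and 0 to 8 in the stroke hemisphere, and stayed at 0 for the interaction and the beta-catenin effect.

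Signs changed only for uncalled values: 23 of 60 member results did so in some alternative, 22 of them when a library was left out and 12 in other settings. The cause was not tested. With the replicate block the beta-catenin log2 values were 0.035 (Cav1) and -0.12 (Ehd4). For the interaction they were 0.034 (Pacsin2), 0.092 (Ptrf) and -0.10 (Sdpr) without the sex-differing libraries, and for Ptrf 0.16 after median-of-ratios scaling and 0.075 after quantile normalization. Between genotypes in the non-stroke hemisphere they were -0.12 and -0.11 for Ehd4 in these 2 scalings, -0.014, -0.030 and -0.019 for Prkcdbp with quantile normalization, sex as a covariate and the 2 libraries left out, and -0.0011 for Pacsin2 without them. In the stroke hemisphere they were 0.033 (Pacsin2) and 0.32 (Plvap) without those libraries and 0.013 for Sdpr with sex as a covariate. With quantile normalization, Cav2 was -0.046 in knockouts and Pmp22 -0.11 in controls.

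Without single libraries, log2 values of both signs ran for beta-catenin from -0.43 to 0.035 (Cav1), -0.27 to 0.042 (Cav2), -0.30 to 0.047 (Ehd2), -0.12 to 0.62 (Ehd4) and -0.95 to 0.12 (Emp1). For the interaction they ran from -0.17 to 0.27 (Prkcdbp), -0.16 to 0.095 (Ptrf) and -0.074 to 0.23 (Sdpr). Between genotypes in the non-stroke hemisphere they ran from -0.072 to 0.15 (Ehd4), -0.0011 to 0.64 (Pacsin2), -0.019 to 0.42 (Prkcdbp), -0.22 to 0.011 (Ptrf) and -0.22 to 0.0051 (Sdpr), and in the stroke hemisphere from -0.094 to 0.12 (Cav1), -0.48 to 0.13 (Pacsin2), -0.61 to 0.35 (Plvap) and -0.20 to 0.11 (Sdpr). For stroke they ran from -0.22 to 0.021 (Cav2), -0.051 to 0.86 (Plvap) and -0.070 to 0.19 (Pmp22) in controls, and from -0.0068 to 0.27 (Cav1), -0.044 to 0.12 (Cav2), -0.23 to 0.42 (Pacsin2) and -0.31 to 1.53 (Esm1) in knockouts.

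The shallowest members rest on few reads, Plvap on as few as 9. In the simulation, which changed only more abundant genes, a log2 change of 1 was often missed. Members that did not pass therefore cannot be called unchanged.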
